A study of Drosophila melanogaster with 60 samples.

Results

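In heads of control flies of the RNAi experiment (labelled conRNAi), 61 of the 7444 measured genes had a daily rhythm with a crest in the evening or early night. They were chosen from the 18 conRNAi libraries alone. A 24 h cosine was fitted to log2(value + 1) of each gene by ordinary least squares. A gene was taken if the F test of the cosine gave an unadjusted p under 0.005. Its crest also had to lie at or after Zeitgeber time (ZT, hours after lights on) 12 and before ZT18. Of 353 genes under that p, 63 had their crest in this window. The clock genes tim and vri are left out by the rule, which leaves 61. The values in conRNAi therefore chose the members and are given here as a description. Only the other 3 genotypes, and the daily mean, were tested. The daily mean of RNAi was tested against the same conRNAi libraries, where the rule favours genes of low scatter.

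The series profiled fly heads by 3′ RNA-seq in 60 libraries, at ZT3, ZT7, ZT11, ZT15, ZT19 and ZT23, and altered cabut (cbt), a zinc finger transcription factor downstream of sugar sensing. In all groups the Tim-gal4 driver was present, which expresses UAS transgenes in cells that use the timeless promoter. The group conOE (12 libraries, 2 courses over the day) carried the driver alone, and the group labelled OE (12 libraries) carried the driver and UAS-cbtFLAG. The group conRNAi (18 libraries, 3 courses) carried the driver with UAS-Dcr2, and the group labelled RNAi (18 libraries) carried the driver with a UAS line for RNAi of cbt; the latter label lists no UAS-Dcr2. A course here means the libraries of a genotype that share a replicate number. The labels do not say that these libraries were collected together. Sex, age and light schedule are not given in the labels used here. Nothing in the labels says that replicate libraries came from separate flies, so the tests speak of the scatter among replicate libraries only, and that scatter may be technical. In a whole head, fewer cells of a type and less RNA per cell cannot be told apart.

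In the Drosophila clock, the CLK and CYC proteins switch on genes with E-box promoter elements late in the day, among them per, tim, vri and Pdp1. PER and TIM proteins then enter the nucleus and block CLK and CYC, while VRI represses and PDP1 activates Clk. Direct targets of CLK and CYC tend to crest around dusk and the early night, and many other head genes follow light, feeding or sleep.

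cbt itself was lower, not higher, in the libraries labelled OE, with 95.4 ± 25.5 normalised reads (SD, n = 12) against 285 ± 31.4 in conOE (log2 change -1.61, limma adjusted p = 3.41e-11). It was not detectably lower in the libraries labelled RNAi, with 308 ± 55.5 (n = 18) against 318 ± 36.7 (log2 change -0.06, limma adjusted p = 0.618). Whether reads of the UAS-cbtFLAG transcript are counted is not given in the sources used here, so the groups are named by their labels throughout. Recovered read totals over the measured genes, with 1 transcript per gene, ran from 349019 to 13922764 per library, with medians of 3365606 in conOE, 2308046 in OE, 4750668 in conRNAi and 2720848 in RNAi. By this total 7 libraries, 5 of them at ZT23, held under 1000000 reads and are called shallow here. One library stood apart among the members: the conOE library of ZT7, replicate 1, held 6491 normalised reads of Lsp1beta, against 160.3 to 1253 in the other 11 conOE libraries. It was also the highest conOE library for tobi, with 385 against 9.20 to 54.9, and for rha, with 171 against 2.09 to 29.6, and the main conOE counts and the changes of these 3 genes are given with and without it.

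The 61 members ranged from shallow to steep rhythms. In conRNAi their amplitude, the distance from midline to crest of the cosine in log2 units, ran from 0.14 in Rpn7, a subunit of the proteasome lid, to 1.49 in Usp8, with a median of 0.43 (1.83-fold from trough to crest) against 0.13 over all 7444 genes. Crests were spread over the window: 21 genes from ZT12 and before ZT14, 14 from ZT14 and before ZT16, and 26 from ZT16 and before ZT18. The daily means ran from 13.4 normalised reads in CG30105 to 14385 in Arr1, with a median of 141 against 73.1 over all genes. By chromosome arm, 32.8% of members (20) lay on 2L, which holds 17.6% of all measured genes, and 26.2% (16) on 3R, which holds 24.2%. The other arms held smaller shares of the members than of all genes: 14.8% (9) against 20.7% on 2R, 14.8% (9) against 18.9% on 3L and 11.5% (7) against 16.9% on X. These shares were not tested.

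At the edges of the rule, the members nearest the p threshold over n = 18 libraries were CG2681 (p = 0.00497), CG30105 (p = 0.00482) and Alg7 (p = 0.00453), and the nearest genes outside were Nop17l (p = 0.00555), APP-BP1 (p = 0.00568) and Gp210 (p = 0.00574). The clock gene Pdp1, with its crest at ZT14.4, missed the threshold over n = 18 libraries (p = 0.00516), as did cwo (p = 0.00684, crest ZT12.2). The earliest crests inside were those of 14-3-3epsilon (ZT12.1), Tsp (ZT12.4) and Cpr11B (ZT12.4), just after Dsk (ZT12.0), Jhbp11 (ZT11.9) and Npc2b (ZT11.8) outside. The latest inside were Epac (ZT18.0), CG1632 (ZT17.9) and CG14270 (ZT17.9), just before Cyp4d21 (ZT18.2), CG10175 (ZT18.3) and goe (ZT18.3).

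**Figure D1:**
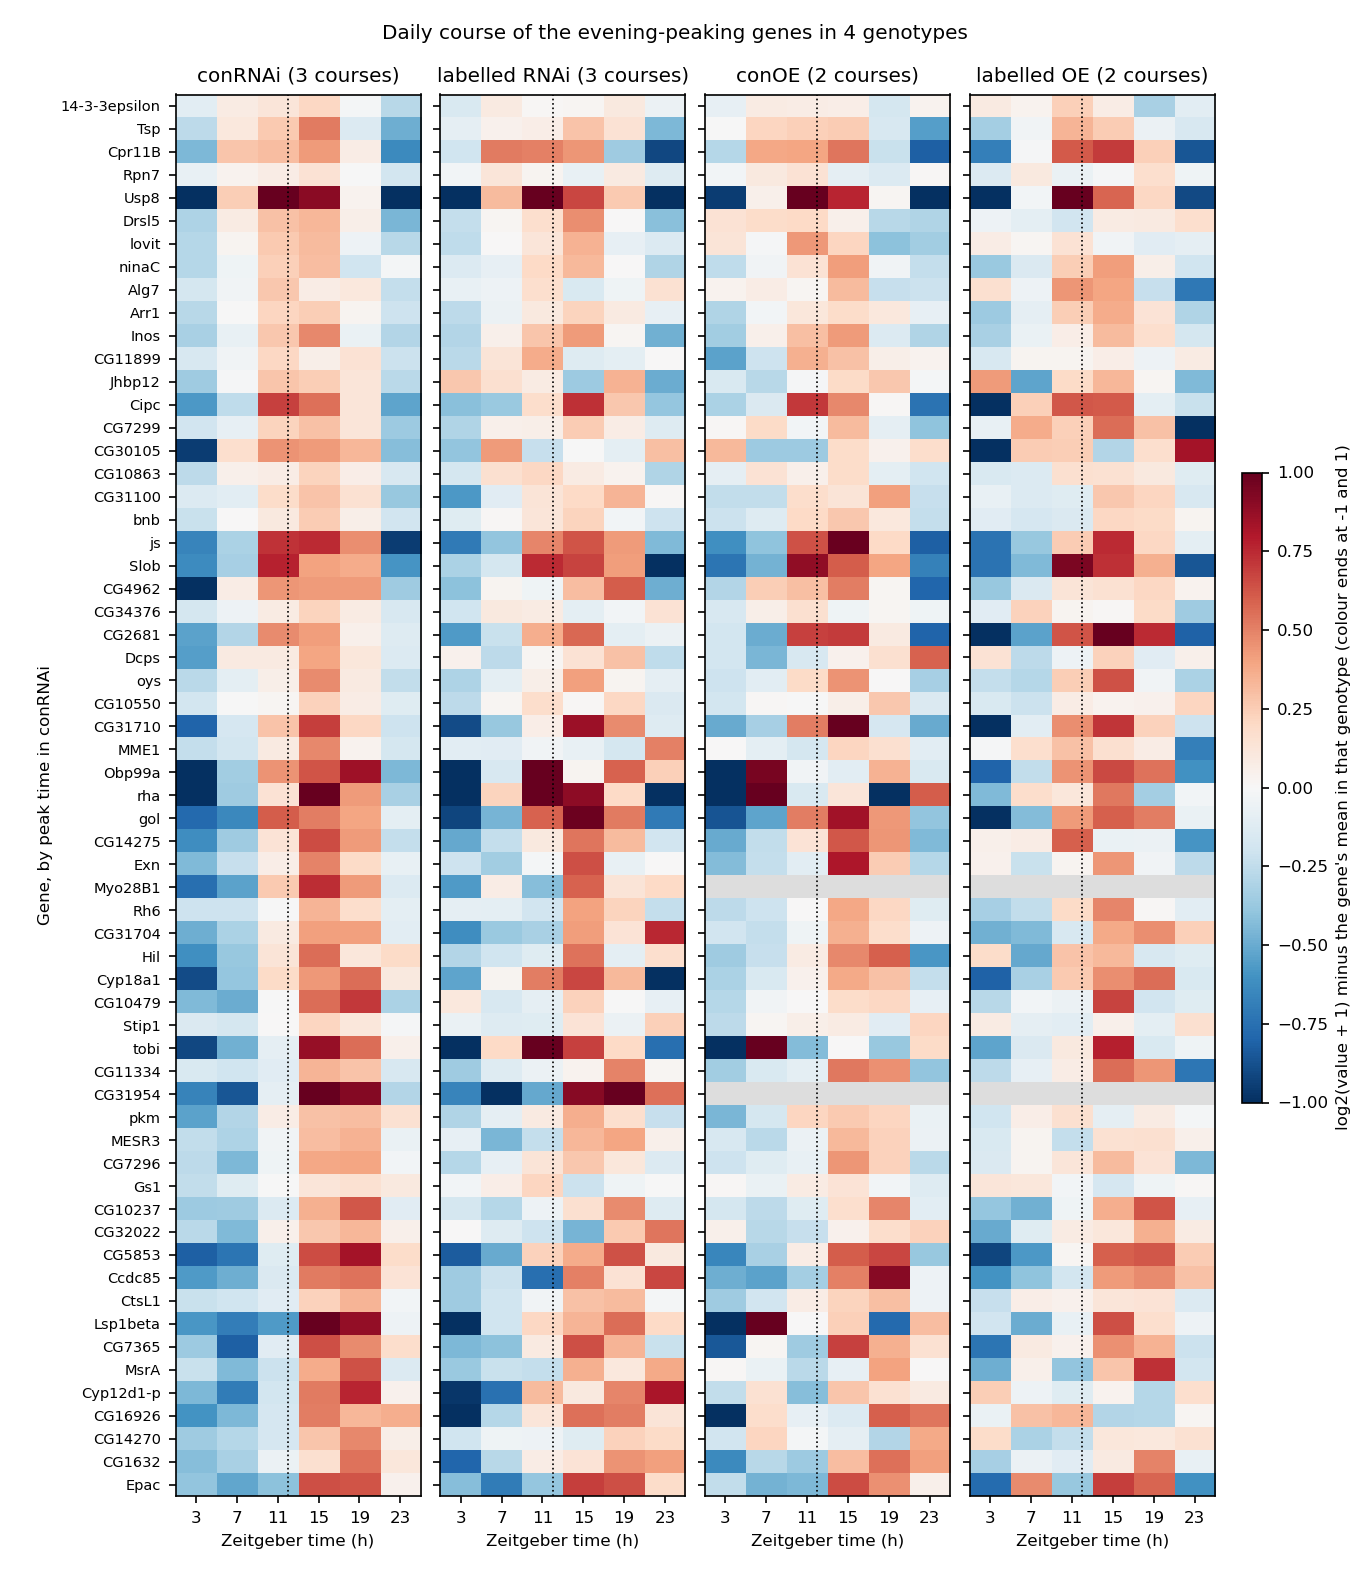
Mean course of each of the 61 genes over 6 Zeitgeber times in the 4 genotypes; colour is log2(value + 1) minus the gene's own mean in that genotype, genes are ordered by crest time in conRNAi, the dotted line marks ZT12 and grey marks 2 genes not listed in the overexpression table. The conRNAi panel is red at ZT11 to ZT19 by the choice of members, and much of that pattern recurs in the other 3 panels, where 50 of 59 (conOE), 51 of 59 (OE) and 53 of 61 (RNAi) genes were higher at ZT11, ZT15 and ZT19 than at ZT23, ZT3 and ZT7.

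The evening bias of the set recurred in the 3 genotypes that the rule did not use. Genes were compared by their mean log2 level at ZT11, ZT15 and ZT19 minus that at ZT23, ZT3 and ZT7. It was above 0 for 50 of the 59 members measured in conOE, where 51.4% of all genes were above 0, for 51 of 59 in OE (51.2% of all genes), and for 53 of 61 in RNAi (51.1% of all genes). The median difference of the members was 0.33 in conOE, 0.36 in OE and 0.34 in RNAi on the log2 scale, against 0.01, 0.01 and 0.00 over all genes. Each single course held the bias as well, with 46 and 50 of 59 members in the 2 conOE courses, 52 and 49 of 59 in the OE courses, and 53, 51 and 50 of 61 in the RNAi courses. Without the ZT7 library that stood apart, the conOE count was 53 of 59. In conRNAi, where the rule fixed it, all 61 members were above 0 (49.9% of all genes).

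Fewer members passed a test of rhythm on their own. With limma (24 h cosine, Benjamini-Hochberg adjusted p under 0.05 over all genes), 13 of 59 members were rhythmic in conOE (1.2% of all genes passed), 8 of 59 in OE (0.601% of all genes) and 20 of 61 in RNAi (2.18% of all genes). Their crests again lay in the ZT12 to ZT18 window for 12 of the 13 in conOE (0.275% of all genes passed with a crest there), all 8 in OE (0.209%) and 17 of the 20 in RNAi (0.403%). At an unadjusted p under 0.05 the counts were 32 of 59 (10.2% of all genes), 24 of 59 (9.4%) and 44 of 61 (12.2%), and of these 25 (2.17% of all genes), 21 (2.48%) and 34 (2.39%) had a crest in the window. The conOE count rested on both courses together and fell to 3 without conOE course 1 and to 1 without conOE course 2, and it was 12 without the ZT7 library that stood apart, with 11 crests in the window. Without the shallow libraries it was 10, of which 8 were among the 13, and the calls of CG31710, Cpr11B, pkm, Rh6 and CG4962 were lost. By edgeR on the recovered reads the counts were 15, 11 and 25 and held every limma call; the genes added were Exn and CG11334 in conOE, CG31710, oys and Rh6 in OE, and CG10237, CG7365, oys, Lsp1beta and CG1632 in RNAi. The RNAi count was 11, 16 and 12 without RNAi course 1, 2 and 3. The OE count was 9 and 12 without OE course 1 and 2, but without OE course 1 only 3 of the 8 genes still passed. Calls that passed without any 1 course were those of Usp8 in conOE, of Usp8, CG5853 and Slob in OE, and of 9 genes in RNAi, namely Usp8, CG5853, gol, js, Inos, CG14275, rha, tobi and CG31954. The RNAi calls of Slob and Cipc were lost without RNAi course 1 or 3, that of Cyp18a1 without course 1 or 2, that of CG31710 without course 1 and that of pkm without course 3. Most limma calls were among the 23 members with a selection p under 0.0001. Of these, 11 were rhythmic in conOE, 8 in OE and 14 in RNAi. Of the other 38 members, 36 of them measured in conOE and OE, only 2, 0 and 6 were rhythmic.

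Crest times were close to those of conRNAi for most members. The crest lay within 3 h of the conRNAi crest for 46 of 59 members in conOE (42% of all genes; 47 without the ZT7 library that stood apart), 40 of 59 in OE (39.4%) and 49 of 61 in RNAi (38.4%). The median difference from conRNAi was -0.74 h in conOE, -0.28 h in OE and 0.18 h in RNAi, and 6, 5 and 5 members lay more than 6 h away. Among members that passed the rhythm test, all 13 in conOE, all 8 in OE and 18 of 20 in RNAi lay within 3 h, and the largest differences were 2.14 h, 1.49 h and 3.5 h. Median amplitudes were 0.35 in conOE, 0.31 in OE and 0.34 in RNAi, against 0.16, 0.19 and 0.16 over all genes. They lay below the conRNAi amplitude for 39 of 59, 43 of 59 and 40 of 61 members, and since members were chosen for a clear rhythm in conRNAi, nothing is read from that side.

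**Figure D2:**
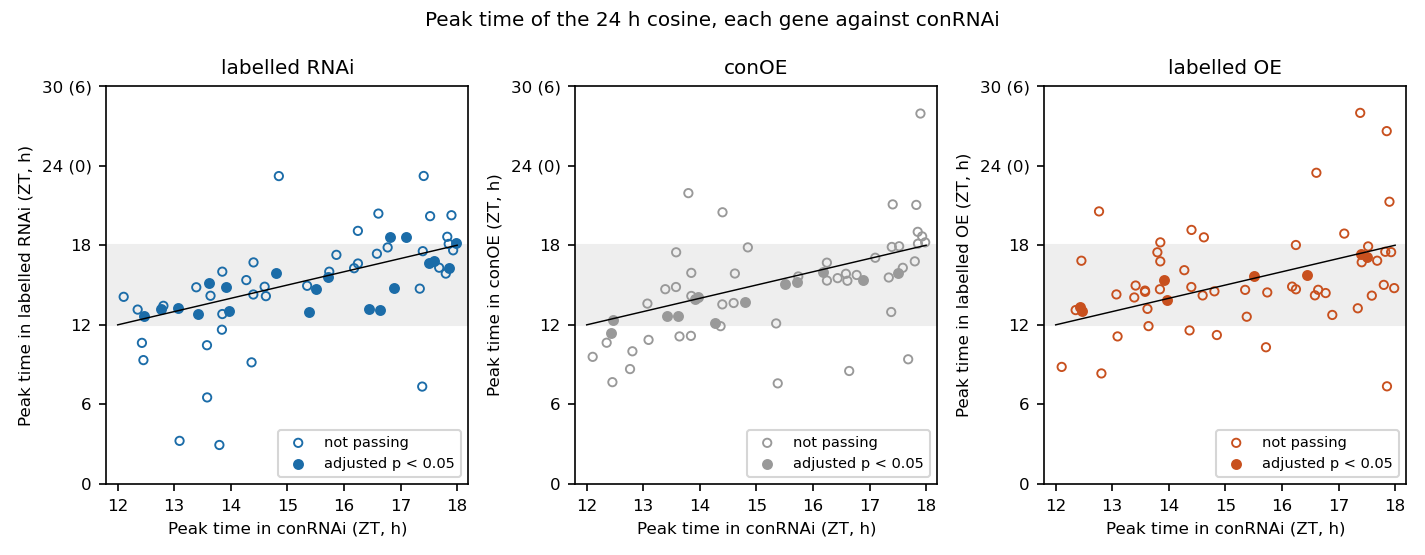
Crest time of each member in the libraries labelled RNAi, in conOE and in those labelled OE (y axis, ZT in hours, running past 24 so that neighbouring times stay together) against its crest time in conRNAi (x axis, ZT in hours); filled points passed the limma rhythm test in that genotype, the grey band is ZT12 to ZT18 and the line marks equal times. Filled points (20, 13 and 8 genes) lie near the line, within 3.5 h, 2.14 h and 1.49 h, while open points scatter more widely.

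Few members passed in more than 1 genotype. By limma, of the 59 members measured in both experiments, 5 were rhythmic in all 3 of conOE, OE and RNAi (0.358% of all genes), 7 in any 2 (0.615%), 11 in 1 (1.8%) and 36 in none.

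The 5 members rhythmic in all 3 other genotypes were Usp8, Slob, gol, js and CG5853. Usp8 is a deubiquitinase reported to act on CLK in the fly clock. In conRNAi, Usp8 held 57.5, 63.1 and 55.5 normalised reads in the 3 libraries of ZT3, 345, 387 and 462 at ZT11 and 75.3, 24.2 and 66.9 at ZT23. In conOE, it held 81.1 and 61.8 at ZT3, 394 and 396 at ZT11 and 53.1 and 50.7 at ZT23. In each of conOE, OE and RNAi the ZT11 libraries were the highest of the day and none overlapped those of ZT3 or ZT23. The same held in conRNAi, whose libraries chose the gene. The ZT23 values of 24.2 in conRNAi and 50.7 in conOE came from shallow libraries. At ZT11, the libraries labelled OE held 342 and 269.8 and those labelled RNAi 251, 308 and 454. The fitted amplitude was 1.49 in conRNAi, 1.35 in conOE (limma adjusted p = 4.26e-06), 1.15 in OE (adjusted p = 6.21e-04) and 1.36 in RNAi (adjusted p = 4.20e-08), with crests from ZT12.4 to ZT13.0. Its daily mean passed in neither comparison by limma (log2 change -0.18 ± 0.11, SE, in OE and -0.15 ± 0.10 in RNAi), but the OE change passed by edgeR on the recovered reads (adjusted p = 0.0154) and by limma without the shallow libraries (adjusted p = 0.0366).

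Slob, whose protein binds the Slowpoke calcium-activated potassium channel, crested between ZT13.1 and ZT14.1 in the 4 genotypes. Its conOE libraries held 87.8 and 81.5 normalised reads at ZT3 and 280.0 and 245 at ZT11, and its OE libraries 82.1 and 46.7 at ZT3 and 211 and 192 at ZT11. The 2 times did not overlap in either genotype. Amplitudes were 0.71 in conRNAi, 0.88 in conOE, 0.97 in OE and 0.89 in RNAi, and the 3 tested ones gave limma adjusted p of 0.00200, 6.87e-04 and 0.00289. Its daily mean was lower in OE by 0.43 on the log2 scale (SE 0.10, limma adjusted p = 7.64e-04). On the Release 6 annotation Slob overlaps Myo28B1, another member that encodes a myosin, on the opposite strand; whether counting used strand is not stated, so reads of the pair may be shared.

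gol (goliath), a RING finger ubiquitin ligase, crested later, between ZT14.7 and ZT15.7 in all 4 genotypes. Its RNAi libraries held 67.1, 93.9 and 82.2 normalised reads at ZT3 and 275, 366 and 273 at ZT15, which did not overlap. Its amplitude was 1.02 in RNAi (limma adjusted p = 2.51e-09), 0.88 in conOE (adjusted p = 1.53e-05) and 0.79 in OE (adjusted p = 0.0345). The OE call was lost without OE course 1, and 1 ZT23 library labelled OE, of under 1000000 reads, held 193 against 73.2 in the other.

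CG5853, an ABC transporter of the white family, and js kept a rhythm while their level shifted. CG5853 held 48.6, 73.8 and 128 normalised reads over the 12 conOE libraries (lowest, median and highest) and 162, 330.3 and 551 over the 12 libraries labelled OE. No library of one group overlapped the other, and the log2 change was 1.95 ± 0.10 (SE, limma adjusted p = 4.71e-14). In OE it still rose from 166 and 162 at ZT3 to 412 and 551 at ZT19, and its crest lay at ZT17.1 with an amplitude of 0.78 (adjusted p = 0.00114) against ZT15.9 and 0.68 in conOE (adjusted p = 0.00315). js held 23.5, 40.6 and 107 in conOE and 61.1, 154 and 259.6 in OE, so the groups overlapped. Its log2 change was 1.75 ± 0.13 (adjusted p = 5.58e-11), and it was rhythmic in both, with amplitudes of 0.91 and 0.65 (adjusted p = 0.00217 and 0.0279). The js call in OE was lost without either OE course and without the libraries under 1000000 reads. In the RNAi experiment the daily mean of neither gene passed (log2 change -0.17 ± 0.08 for CG5853 and 0.00 ± 0.11 for js).

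**Figure D3:**
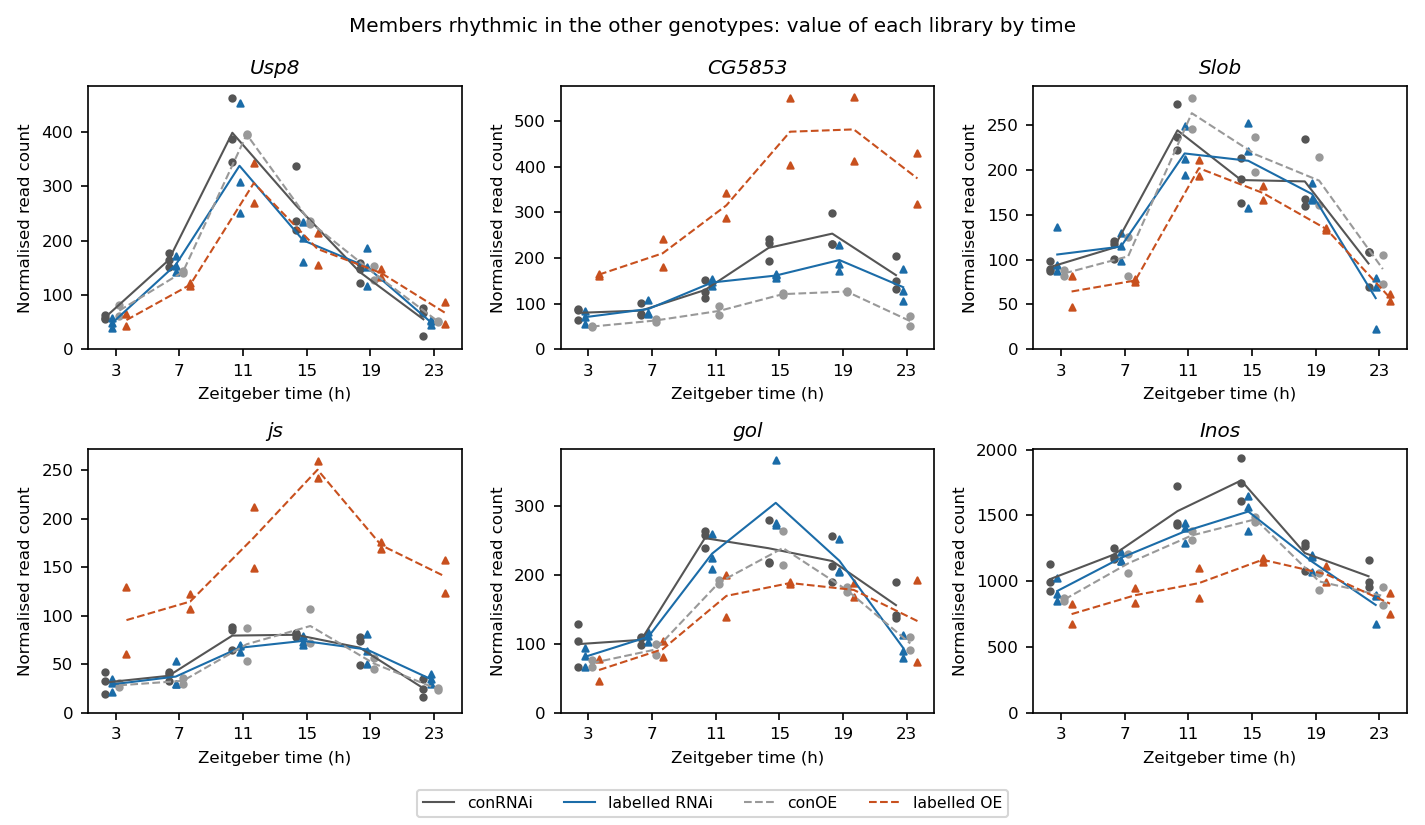
Normalised read count of each library (points: circles for controls, triangles for the labelled groups) and the mean of 2 or 3 libraries per time (lines) over Zeitgeber time in hours, for 6 members, 5 of them rhythmic in all 3 genotypes that the rule did not use. The 4 lines run together for Usp8, while the CG5853 and js lines of the libraries labelled OE lie above the other 3 and keep the evening crest.

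The members rhythmic in any 2 of the 3 genotypes were Cyp18a1, CG31710, Inos, Cpr11B, CG14275, Cipc and pkm. Cipc is the fly counterpart of a mammalian protein that binds CLOCK. It held 126 and 124 normalised reads at ZT11 and 54.0 and 38.0 at ZT23 in conOE, without overlap, and was rhythmic in conOE (amplitude 0.65, limma adjusted p = 0.0154) and RNAi (0.58, adjusted p = 0.00919). Its fitted amplitude in OE was 0.75 and did not pass (adjusted p = 0.278), with 1 shallow ZT3 library at 10.8. Inos, which makes inositol phosphate from glucose phosphate, crested at ZT12.7 in conOE (amplitude 0.40, adjusted p = 0.00448) and ZT12.8 in RNAi (0.43, adjusted p = 4.86e-05). In OE its amplitude was 0.29 with a crest at ZT15.0 (adjusted p = 0.173).

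Cyp18a1, a cytochrome P450 that inactivates ecdysone, was rhythmic in OE and RNAi. In OE it rose from 105 and 71.9 normalised reads at ZT3 to 243 and 212 at ZT19, and the 2 times did not overlap (amplitude 0.66, limma adjusted p = 0.00342). In conOE it went from 62.0 and 61.8 to 111 and 80.8 (amplitude 0.35, adjusted p = 0.221). The difference in its rhythm between OE and conOE did not pass (unadjusted p = 0.0877). Its daily mean was higher in OE by 0.98 ± 0.10 (SE, adjusted p = 1.16e-08), and its RNAi crest at ZT13.2 was 1 of 2 RNAi calls more than 3 h from the conRNAi crest, the other being that of tobi.

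The cuticle protein gene Cpr11B had a near-dusk crest in conOE (ZT11.4, limma adjusted p = 0.0226) and OE (ZT13.3, adjusted p = 0.00783). It was the member with the second largest fall in OE, from 54.9, 98.7 and 185 normalised reads in conOE to 26.3, 57.7 and 89.7 in OE, groups that overlapped (log2 change -1.07 ± 0.13, adjusted p = 1.46e-07). It was also lower in RNAi (-0.91 ± 0.17, adjusted p = 4.57e-05). CG31710 was rhythmic in conOE (adjusted p = 0.0289) and RNAi (adjusted p = 8.76e-04), and so was pkm (adjusted p = 0.0417 and 0.001). The conOE calls of CG31710, pkm and Cpr11B were lost without the shallow libraries. pkm had an amplitude of 0.08 in OE against 0.35 in conOE, a difference that did not pass (unadjusted p = 0.0507).

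No member passed the test of a changed rhythm between OE and conOE. By limma (genotype by cosine terms, adjusted over all genes) 0 of 59 members passed, as did 0% of all 7648 genes, and edgeR on the recovered reads also gave 0 of 59. The smallest adjusted p of a member was 0.999. At an unadjusted p under 0.05 there were 4 members (4.08% of all genes): Drsl5, CG14275, bnb and CG4962. CG14275 crested at ZT15.2 in conOE (amplitude 0.59, limma adjusted p = 0.0157). In OE it held 1247 and 531 normalised reads at ZT7, 1371 and 1002 at ZT11, and 861 and 307 at ZT23, the 307 in a shallow library. Its fitted crest in OE lay at ZT10.3, in a rhythm that did not pass (limma adjusted p = 0.570). The unadjusted limma p of the difference was 0.0247. Amplitudes were lower in OE than in conOE for 32 of 59 members and for 41.3% of all genes. Between RNAi and conRNAi the amplitudes are given side by side only: the lowest in RNAi were 0.02 for CG34376 (conRNAi 0.20), 0.02 for Alg7 (0.22) and 0.05 for CG30105 (0.67).

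Daily means of the members shifted in both directions in the libraries labelled OE. By limma with time as a factor, 34 of 59 members differed from conOE (57.6%; 41.3% of all genes), 19 of them higher (22.7% of all genes) and 15 lower (18.6%). The median log2 change was 0.03, against 0.01 over all genes. Libraries of the 2 groups did not overlap at all for 8 members (5.99% of all genes): CG5853, Drsl5, Lsp1beta, Cyp12d1-p, rha, CG16926 and tobi, all higher, and CG10863, lower. The counts were 28 and 27 without conOE course 1 and 2, 31 and 30 without OE course 1 and 2, and 34 without the conOE library that stood apart. Direction differed along the window: of the 21 members with a crest before ZT14, 3 were higher and 10 lower, of the 13 measured with a crest from ZT14 and before ZT16, 5 were higher and 0 lower, and of the 25 with a later crest, 11 were higher and 5 lower; this split was not tested.

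The largest increases were those of Lsp1beta and tobi, both of the fat body list, and of rha, Drsl5, CG16926 and Obp99a. Lsp1beta, a larval serum storage protein made in the fat body, held 160.3, 290.3 and 6491 normalised reads in conOE (lowest, median and highest of 12) and 17464, 37448 and 56806 in OE. The log2 change was 6.11 ± 0.39 (SE, limma adjusted p = 1.16e-12), and 6.50 without the conOE library that stood apart. tobi, an alpha-glucosidase that responds to insulin-like peptides of the brain, held 9.20, 31.8 and 385 in conOE and 1366, 2294 and 4741 in OE (log2 change 6.03 ± 0.30, adjusted p = 2.21e-14, and 6.33 without that library). Every OE library lay above every conOE library for both genes.

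rha lies beside tobi on arm 3R and overlaps it on the opposite strand, so that reads of the pair may be shared. It held 2.09, 16.7 and 171 normalised reads in conOE and 374, 849 and 1340.05 in OE, without overlap (log2 change 5.67 ± 0.32, limma adjusted p = 1.74e-13, and 5.94 without the conOE library that stood apart). Drsl5, of the Drosomycin family of antifungal peptides, held 1142, 1501 and 2169 in conOE and 7576, 8641 and 12725 in OE, again without overlap (log2 change 2.57 ± 0.11, adjusted p = 1.68e-15). CG16926 was higher by 2.51 ± 0.19, also without overlap, and Obp99a, an odorant binding protein, by 2.12 ± 0.36, with overlap (adjusted p = 5.87e-11 and 3.84e-05). Smaller increases were those of CG14275 (1.64 ± 0.17, adjusted p = 9.60e-09) and the P450 gene Cyp12d1-p (1.31 ± 0.14, adjusted p = 2.38e-08), whose reads may be shared with a near-identical copy.

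Some marker lists moved with these genes. Of the fat body list, with Lsp1beta and tobi among its 12 measured genes, 11 were higher and 0 lower in OE; the summed level of its other 10 genes ran from 13486 to 20605 normalised reads in conOE and from 29883 to 46983 in OE. Of 27 measured immune genes 24 were higher and 0 lower, with summed levels of 18227 to 35539 and 102677 to 201168. In both lists the summed levels of the groups did not overlap. Of all genes, 22.7% were higher and 18.6% lower in OE. Rises were not limited to these lists. Of 8 measured haemocyte genes 5 were higher and 0 lower, and of 17 heat shock and stress genes 9 and 2. Of 19 protein folding and secretion genes 9 were higher and 1 lower, and of 35 detoxification genes 16 and 6. Some lists with more genes lower are given below. No measured marker was at 0 in any library, since each listed transcript had reads in all of them. Their part in the members' changes was not tested.

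**Figure D4:**
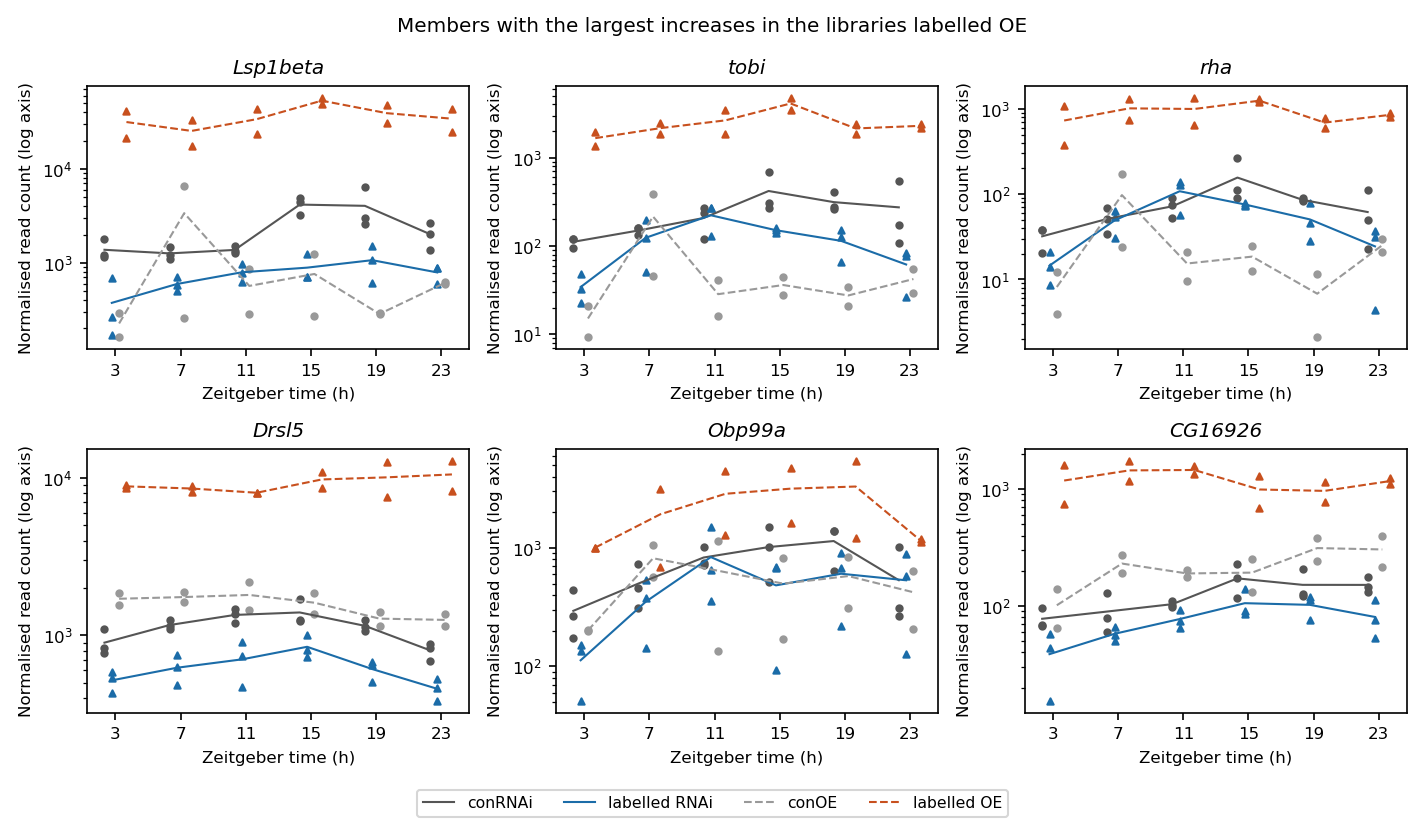
Normalised read count of each library (points: circles for controls, triangles for the labelled groups; log axis) and the mean per time (lines) over Zeitgeber time in hours, for the 6 members with the largest increases in the libraries labelled OE. The OE points lie above all conOE points for all but Obp99a, and the conOE library of ZT7 at 6491 for Lsp1beta stands above the other conOE points.

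Falls in OE were smaller. CG10863, of the aldo-keto reductase family, held 457, 542 and 679 normalised reads in conOE and 165, 236 and 286 in OE, without overlap (log2 change -1.24 ± 0.08, limma adjusted p = 3.14e-12). The 3 members of the photoreceptor list all fell: Arr1, the arrestin that binds rhodopsin, by 0.60 (SE 0.08, adjusted p = 1.27e-06), Rh6, the green-sensitive rhodopsin of R8 cells, by 0.26 (SE 0.06, adjusted p = 0.00233), and ninaC, the myosin III of photoreceptors, by 0.24 (SE 0.07, adjusted p = 0.00837). lovit, which loads histamine into photoreceptor synaptic vesicles, fell by 0.41 (SE 0.11, adjusted p = 0.00408). The Rh6 call was lost without conOE course 1, and the ninaC call without conOE course 2 or OE course 2. Of the whole photoreceptor list 4 of 29 measured genes were higher and 16 lower in OE (22.7% and 18.6% of all genes). Such falls were not limited to this list. In OE 9 of 14 pan-neuronal genes, 6 of 11 glia genes and 10 of 14 synaptic neuropeptide and receptor genes were lower, and 0, 3 and 2 higher. The summed level of the 26 photoreceptor genes that are not members ran from 77301 to 90109.8 normalised reads in conOE and from 68427 to 80607 in OE. The part of these lists in the members' falls was not tested.

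These photoreceptor members had shallow rhythms. Rh6 held 939 and 774 normalised reads at ZT3 and 1319 and 1351 at ZT15 in conOE, without overlap (amplitude 0.32, limma adjusted p = 0.0329), a call lost without the shallow libraries, and ninaC was rhythmic in RNAi (amplitude 0.28, adjusted p = 0.0141). Arr1 had amplitudes of 0.22, 0.38 and 0.21 in conOE, OE and RNAi and passed in none with all libraries (adjusted p = 0.271, 0.159 and 0.182). Over the photoreceptor list, rhythms passed for 8 of 29 genes in conOE (1.2% of all genes), 5 of 29 in OE (0.601%) and 12 of 28 in RNAi (2.18%). Those passing in all 3 were Rh3, Rh4, Rh5, trpl and inaC. None of these is a member, and their crest times are not given here.

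Further falls in OE were those of Cipc (by 0.60, SE 0.18, limma adjusted p = 0.00930), CG7299 (by 0.64, SE 0.25, adjusted p = 0.0375), Hil (by 0.52, SE 0.18, adjusted p = 0.0259) and Tsp, the fly thrombospondin (by 0.46, SE 0.10, adjusted p = 8.32e-04). The calls of Cipc and CG7299 were lost without either conOE course, that of Hil without conOE course 2 or OE course 1, and that of Tsp without conOE course 2. CG7299 had 1 ZT23 library labelled OE at 8.77 normalised reads, of under 1000000 reads in total, and its call was also lost without such libraries. The 25 members that did not pass by limma had log2 changes from -0.40 to 0.36, among them gol and the proteasome subunit gene Rpn7 (0.09 ± 0.08). Of these 25, Usp8, oys, MME1 and CG11899 passed by edgeR on the recovered reads.

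Fewer members had a changed daily mean in RNAi. By limma, 21 of 61 differed from conRNAi (34.4%; 22.4% of all genes), 6 higher (9.23% of all genes) and 15 lower (13.1%). The median log2 change was -0.02, against -0.01 over all genes. Since the rule favours genes of low scatter in conRNAi, the share of members that differed is not read against that of all genes. Groups did not overlap for 2 members (0.685% of all genes), CG7299 and CG7296, which lie next to each other on the same strand of arm 2L without overlapping. CG7299 held 163, 225 and 311 normalised reads in conRNAi (lowest, median and highest of 18) and 450.4, 602 and 804 in RNAi (log2 change 1.43 ± 0.06, SE, adjusted p = 1.10e-22). CG7296 held 104, 198 and 299 and 320.1, 467 and 691 (log2 change 1.25 ± 0.08, adjusted p = 2.02e-16). The other increases were those of CG31954 (0.73 ± 0.19), MESR3 (0.56 ± 0.07), the mitochondrial glutamine synthetase gene Gs1 (0.47 ± 0.06) and CG10550 (0.18 ± 0.06), and CG31954 lost its call without RNAi course 3 and CG10550 without conRNAi course 1.

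The largest falls in RNAi were those of Lsp1beta, tobi and Cyp12d1-p, which were higher in OE, followed by that of Cpr11B, which was lower in OE. Lsp1beta held 1105, 1643 and 6483 normalised reads in conRNAi and 169, 706 and 1515 in RNAi, which overlapped (log2 change -1.58 ± 0.15, SE, limma adjusted p = 6.39e-11). tobi changed by -1.15 ± 0.21 (adjusted p = 3.28e-05), Cyp12d1-p by -0.98 ± 0.20 (adjusted p = 2.26e-04), Cpr11B by -0.91 ± 0.17 and Drsl5 by -0.86 ± 0.07 (adjusted p = 1.32e-12). Obp99a (-0.81 ± 0.27, adjusted p = 0.0237) and rha (-0.64 ± 0.22, adjusted p = 0.0326) passed by less: both lost their call by edgeR on the recovered reads and without conRNAi course 2 or RNAi course 3, Obp99a also without conRNAi course 1, and rha also without conRNAi course 3, RNAi course 2 or the shallow libraries. CG16926 changed by -0.72, CG31704 by -0.72 and CG7365 by -0.68. The 40 members that did not pass by limma had log2 changes from -0.30 to 0.32.

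For Lsp1beta the 3 conRNAi and 3 RNAi libraries lay further apart at ZT15 than at ZT11, a difference that was not tested because the rule used conRNAi. The conRNAi libraries held 1513, 1276 and 1323 normalised reads at ZT11 and 4911, 4386 and 3197 at ZT15, and the RNAi libraries 965, 629 and 785 and 1247, 704 and 713. All 3 conRNAi libraries at ZT15 lay above all 3 at ZT11, while the RNAi libraries of the 2 times overlapped. The amplitude was 0.65 in RNAi beside 0.93 in conRNAi, where the gene was chosen for it. The RNAi rhythm missed the threshold by limma (adjusted p = 0.0649) and passed by edgeR on the recovered reads (adjusted p = 0.0404), with the replicate block (limma adjusted p = 0.0181) and without the shallow libraries (limma adjusted p = 0.0488). In conOE its rhythm did not pass with all libraries (fitted crest ZT9.40, limma adjusted p = 0.846) or without the ZT7 library that stood apart (crest ZT15.8, limma adjusted p = 0.792). tobi and rha passed the rhythm test in RNAi, with crests at ZT13.1 and ZT13.0 (limma adjusted p = 8.94e-04 and 7.62e-04). With all libraries neither passed in conOE or OE (limma adjusted p from 0.278 to 0.848), and tobi passed in OE without OE course 1.

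Across the 59 members measured in both experiments, 9 were higher in OE and lower in RNAi (15.3%; 6.54% of all genes): Lsp1beta, tobi, rha, Drsl5, CG16926, Obp99a, Cyp12d1-p, CG31704 and CG7365. They are 9 of the 19 members higher in OE, where 28.6% of all genes higher in OE were lower in RNAi, and 9 of the 15 lower in RNAi, where 47.5% of all genes lower in RNAi were higher in OE. The comparisons share no libraries, but the RNAi comparison holds the conRNAi libraries that chose the members. The reverse, lower in OE and higher in RNAi, was seen for CG7299 alone, 3 members were lower in both (Inos, Cpr11B and CG10863), 2 were higher in both (MESR3 and CG10550), and 20 passed in neither. Leaving out 1 course ended the OE call of CG7365 (conOE course 1 or OE course 1), of Inos (conOE course 2 or OE course 1) and of CG10550 (OE course 1), and the RNAi call of CG10863 (conRNAi course 1 or RNAi course 3) and of Inos (conRNAi course 1 or 3, or RNAi course 2). Of the 10 measured fat body genes that are not members, 1 was higher and 6 lower in RNAi, and of 26 immune genes 1 was higher and 11 lower (9.23% and 13.1% of all genes); their part in the members' changes was not tested. The summed level of those 10 fat body genes ran from 19795 to 37943 normalised reads in conRNAi and from 14442 to 30419 in RNAi, which overlapped.

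**Figure D5:**
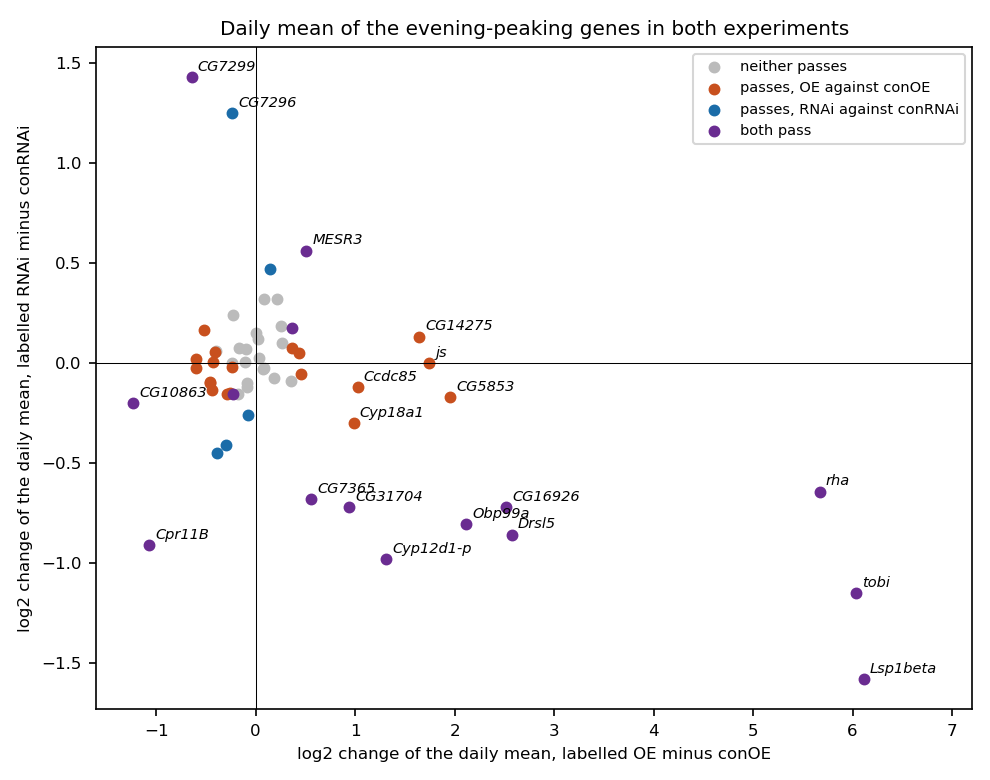
Log2 change of the daily mean of 59 members in the libraries labelled OE against conOE (x axis) and in those labelled RNAi against conRNAi (y axis); colours give which limma test passed at an adjusted p under 0.05. Most points lie near 0, with Lsp1beta, tobi and rha far to the right and below 0, and CG7299 and CG7296 at the top.

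Of the measured clock genes left out by the rule, tim and vri had the largest amplitudes in conRNAi. tim crested at ZT15.8 in conRNAi, ZT15.6 in conOE, ZT15.9 in OE and ZT15.6 in RNAi, with amplitudes of 1.76, 1.97, 1.65 and 1.88. vri crested between ZT13.0 and ZT13.4 with amplitudes of 1.79 to 1.92. Usp8 was the member nearest to tim and vri in amplitude in conRNAi. The other measured clock genes had lower conRNAi amplitudes, against a member median of 0.43. They were 0.62 for cry, 0.49 for Clk, 0.40 for Pdp1, 0.31 for cwo, 0.24 for Pdf and 0.15 for cyc. By limma, 5 of 9 clock genes left out by the rule were rhythmic in conOE, 4 of 9 in OE and 5 of 8 in RNAi. Of the clock output list, which holds Slob and Cyp18a1, 5 of 17 were rhythmic in conOE, 6 of 17 in OE and 7 of 19 in RNAi. Of 16 measured clock kinases and protein turnover genes Usp8 was the only one in each of the 3. Over all genes, 1.2%, 0.601% and 2.18% passed in conOE, OE and RNAi.

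Most other members passed in 1 genotype or in none. The protein handling genes 14-3-3epsilon, Rpn7, Stip1 (a chaperone that links Hsp70 and Hsp90) and CtsL1 (cathepsin L) had conRNAi amplitudes of 0.21, 0.14, 0.19 and 0.29, and of these CtsL1 was rhythmic in RNAi by limma (adjusted p = 0.00675). MESR3, Epac (a cAMP-activated exchange factor), Drsl5, CG16926 and CG31954 were also rhythmic in RNAi by limma, with adjusted p from 6.22e-06 to 0.0370. With all libraries MESR3, Epac, Drsl5 and CG16926 passed in neither conOE nor OE, and CG16926 passed in OE without OE course 1. CG31954 was not measured in conOE or OE. The RNAi calls of MESR3 and Epac were lost without RNAi course 1, 2 or 3. The call of CG16926 was lost without RNAi course 1 or 3. The Drsl5 call was lost without RNAi course 2 or 3 and without the shallow libraries. CG10237 passed by limma in OE (adjusted p = 0.0155). In RNAi it missed the threshold in the main limma fit (adjusted p = 0.0724) and passed by edgeR on the recovered reads (adjusted p = 0.0118). It also passed in RNAi by limma without the shallow libraries (adjusted p = 0.00642) and with the replicate block (adjusted p = 0.0471). CG4962 passed in conOE (limma adjusted p = 0.0472), a call lost without the conOE library that stood apart and without the shallow libraries. Passing in 1 genotype and not in another does not show that the rhythm differs. MME1 (a mitochondrial magnesium exporter), MsrA (methionine sulfoxide reductase) and CG11899 (a phosphoserine aminotransferase) passed in none of the 3 by limma or edgeR with all libraries, though CG11899 passed in RNAi without RNAi course 2. oys, a lysophospholipid acyltransferase, passed in none in the main limma fit. By edgeR on the recovered reads it passed in OE (adjusted p = 0.0204) and RNAi (adjusted p = 0.0437). It also passed in OE and RNAi by limma without the shallow libraries (adjusted p = 0.0217 and 0.0235) and with the replicate block (adjusted p = 0.0460 and 0.0230). CG11899 was lower in RNAi (-0.41 ± 0.07, adjusted p = 4.05e-05).

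The authors' deposited table also holds a rhythm test of their own for each genotype, whose method the headers do not name. In the authors' deposited table a q under 0.05 was listed for 61 of 61 members in conRNAi (12.6% of all genes), 39 of 61 in RNAi (11% of all genes), 27 of 59 in conOE (7.53%) and 19 of 59 in OE (7.01%). The conRNAi count is from the libraries that chose the members.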

How the data were processed

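The deposited signal in both tables is, from the values, a read count per transcript divided by a size factor of the library. All values came out whole, within 0.05 reads, in 59 of 60 libraries. The authors aligned with Bowtie and TopHat to dm3, per the submitters' processing notes; the sources used here do not give the counting, scaling or filter. The authors' deposited p-values and q-values of a rhythm test were counted at a q under 0.05. The transcript of highest mean stood for each gene, and names, arms and neighbours came from a Release 6 RefSeq table, without coordinates. On that annotation Gs1 overlaps ND-15, Epac overlaps Cyp6a2 and CG11334 overlaps Loxl1, each a measured gene on the same strand. The members CG34376 and Rpn7 overlap each other on opposite strands. Reads of these pairs may also be shared.

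Values were fitted as log2(value + 1) with limma 3.58.1 (limma-trend, R 4.3.3) over all 7648 or 7444 genes and adjusted by Benjamini-Hochberg. The rhythm test used a cosine and a sine of 24 h within a genotype, the daily mean a genotype term with time as a factor, and the change of rhythm the genotype by cosine and sine terms. Fold changes on this scale understate those of low genes, and no listed transcript was without reads in any library. edgeR 4.0.16 (quasi-likelihood) on the recovered reads was an alternative, and the steps were tested on simulated data. Replicate numbers came from the labels. For same-numbered libraries of a time, deviations from the mean of their genotype and time were correlated between the labelled group and its control. These correlations were above 0.1 in 10 of 30 cases, so the numbers were not taken as pairs. In the overexpression experiment, with 2 libraries per time and genotype, both numbers give the same value by construction.

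Members and lists were chosen with earlier results of these data known. A rule named 43 genes: the 12 members of lowest selection p, those rhythmic by lowest p, up to 6 rises and 6 falls per comparison, 5 for a changed rhythm, list members and those at the edges. The other members named, among them oys, CtsL1, MsrA, MME1, Stip1, Rpn7, CG11899, CG34376, CG31704 and Myo28B1, were picked after their values were seen. No protein, promoter or genome sequence was used here.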

Additional observations from a re-analysis of the deposited data

How the results depend on the processing

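The set itself depended on the threshold and on single courses. It held 36 genes at an F test p under 0.001, 77 at p under 0.01 and 67 by limma (55 shared), and 30 to 55 when 1 conRNAi course was left out (30 without course 1, of which 27 were shared, and 34 without course 3, of which 28 were). The count of members rhythmic in conOE ran from 1 to 12 when a course or the ZT7 library that stood apart was left out (3 without course 1, 1 without course 2), in OE from 9 to 12, and in RNAi from 11 to 16 (11 without course 1, 12 without course 3). Members with a changed daily mean numbered 27 to 34 in OE and 16 to 22 in RNAi, and 0 to 0 had a changed rhythm. Fits on a single course rest on 6 libraries. Without the ZT7 library, 53 conOE members had an evening bias, 47 a crest within 3 h of conRNAi and 11 a rhythm with a crest in the window. Leaving out the ZT7 library was chosen after seeing the data.

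With the replicate number as a block, the set held 68 genes (55 shared), the rhythmic members were 17 in conOE, 12 in OE and 26 in RNAi, the changed daily means 34 and 21, and the changed rhythms 0. By edgeR on recovered reads these were 15, 11, 25, 38, 21 and 0. Other settings kept each count of called members within 1.5 times. They were a pseudocount of 10, a minimum mean of 20, median-ratio or TMM rescaling and leaving out libraries under 1000000 reads. The set itself was not chosen again in these settings, so its dependence on the shallow conRNAi library at ZT23 was not checked. Leaving out the libraries under 1000000 reads kept 8 of the 13 conOE calls, 7 of the 8 OE calls and 19 of the 20 RNAi calls. No direction reversed in any of these settings. Over all members that passed in the main fit, 634 daily mean values and 344 rhythm values kept their call, and 46 and 58 lost it. Calls gained in a setting do not enter these counts. Depth limits the low members, such as CG30105 and Myo28B1, and the ZT23 libraries.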
